A study of Mus musculus with 24 samples.

Results

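Memory B cells from SCAP cKO mice were compared with those from WT mice, with the genotype effect averaged over 3 sorted populations. All 24 libraries of the series entered the comparison: 12 from SCAP cKO and 12 from WT, with 4 libraries in each of the 6 groups and 2 batches named in the labels, so that every group held 2 libraries of each batch. WT mice are labelled SCAP +/+ hCD20-TamCre and SCAP cKO mice SCAP fl/fl hCD20-TamCre, so both genotypes carried the Cre transgene, and deletion depends on human CD20 regulatory sequence, which is active in B cells. House dust mite extract had been given through the nose, the same allergen was given again after 6 weeks, and SCAP was deleted before that second exposure. The populations were memory B cells (csMBC in the labels): CCR6+CD69+ cells of the lung, CCR6-CD69- cells of the lung, and circulating cells; lung is named as the source of all of them, the circulating ones included. Age, sex and strain background, and how Cre was induced, are not given in the sources used here. No label says that replicates came from separate animals, so each p-value reflects only how far these libraries spread, which may be technical.

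SCAP is a membrane protein of the endoplasmic reticulum that escorts the transcription factors SREBP-1 and SREBP-2 to the Golgi, where the proteases encoded by Mbtps1 and Mbtps2 release their active part. INSIG proteins hold SCAP back when sterols are plentiful. Released SREBPs bind sterol regulatory elements and E-boxes in the promoters of genes for cholesterol synthesis, fatty acid synthesis and sterol uptake, and lymphocytes draw on this programme when they grow and divide.

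A pair of promoters shows the letters through which SREBPs are known to act. Each is the 250 bases before the annotated start from RefSeq (GRCm38.p6, plus strand, 5′ to 3′). Insig1 had the smallest p among the genes of the SREBP pathway list that were lower in SCAP cKO, and an E-box, CACGTG in capitals, starts 101 bases before the start of transcription in chr5:28071162-28071411. Hmgcs1, the textbook SREBP target that makes HMG-CoA, was chosen for display after its values were seen; CACCCCA, a core of the sterol regulatory element, stands in capitals 136 bases before the start in chr13:119690101-119690350.
Insig1: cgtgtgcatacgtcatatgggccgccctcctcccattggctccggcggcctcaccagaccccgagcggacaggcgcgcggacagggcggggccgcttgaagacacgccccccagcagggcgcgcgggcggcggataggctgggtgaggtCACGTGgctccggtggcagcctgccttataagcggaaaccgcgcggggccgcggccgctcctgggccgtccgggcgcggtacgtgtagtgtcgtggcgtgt
Hmgcs1: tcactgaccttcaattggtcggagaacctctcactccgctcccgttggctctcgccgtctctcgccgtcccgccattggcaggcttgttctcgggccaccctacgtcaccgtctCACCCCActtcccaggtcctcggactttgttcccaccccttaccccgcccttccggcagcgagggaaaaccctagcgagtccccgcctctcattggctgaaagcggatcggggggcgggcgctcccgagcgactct
Searched on both strands, CACGTG occurred in 6.02% and CACCCCA in 6.68% of 32851 promoter windows of this length, and the end of CACCCCA can overlap the start of CACGTG. Of 41 tested genes on the 3 lists for cholesterol synthesis, fatty acid synthesis and the SREBP pathway, 33 had a window. CACGTG was found for 7 of them (21.2%), among them Scap, Insig1, Sc5d and Hacd3, of which 4 were lower and 3 higher in SCAP cKO. CACCCCA was found for 4 (12.1%), Elovl1, Hmgcs1, Lpin1 and Tecr, of which 2 were lower and 2 higher. A gene was counted if any of its windows held the motif. These shares of genes are therefore not comparable with the shares of single windows given above.

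Total counts ran from 356782 to 8566243 per WT library and from 129025 to 4641148 per SCAP cKO library. In batch 1 both genotypes had similar numbers of genes detected, with medians of 7069 in WT and 7039 in SCAP cKO, whereas in batch 2 the medians were 6825 and 4732.5. Libraries under 500000 counts were WT circulating replicate 2 and SCAP cKO lung CCR6-CD69- replicate 4. Chil3, a macrophage gene, took more counts than any other gene in WT lung CCR6-CD69- replicate 2 and SCAP cKO lung CCR6-CD69- replicate 1. Markers of the labelled cell type were present: 9 tested B cell genes, among them Ms4a1, Pax5 and Spib, summed to 3145 to 7220 CPM (counts scaled to 1e6 per library) in WT and 3481 to 7048 CPM in SCAP cKO libraries, with 0 past the threshold between genotypes.

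Scap itself did not pass the test between the genotypes. It was counted at 0 to 203 CPM in WT libraries (median 121, mean 113 ± 56.2 SD, n = 12) and at 0 to 446 CPM in SCAP cKO libraries (median 127, mean 132 ± 112 SD, n = 12). The ranges overlapped almost fully, and 11 of 12 libraries of each genotype held Scap counts. Its log2 fold change, SCAP cKO minus WT here and throughout, was 0.27 ± 0.56 (SE; edgeR quasi-likelihood, adjusted p 1.00). It turned negative in batch 2 alone, at -0.47, and without the circulating libraries, at -0.34. The median of all genes was -0.49 and -0.18 in those fits. The deposited value is 1 number per gene and library, and how it was made from exons is not given in the sources used here. Loss of a few exons need not lower such a value, so deletion could not be checked from these data. In such bulk samples, fewer cells of a type and less RNA per cell cannot be told apart.

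Averaged over the populations, few genes separated SCAP cKO from WT, and the ribosomal protein gene Rpl29 stood first among them. Of 6779 genes tested, 7 (0.103%) passed an adjusted p of 0.05: Rell1 rose (0.0148%), and Rpl29, Zmynd19, Mypop, Pdcd1, Lamb3 and Spc25 fell (0.0885%). Of all genes tested, 3617 (53.4%) were lower and 3162 (46.6%) higher. Without adjustment, 121 genes (1.78%) were higher and 214 (3.16%) lower at p under 0.05. The median log2 fold change over all genes was -0.05, and the biological coefficient of variation between libraries was 1.12. DESeq2 called 40 genes (0.590%), 5 higher and 35 lower, 6 of the 7 among them. Leaving out a single library left between 1 and 6 calls; only without WT circulating replicate 1 or 4 were at least 5 left, and each of the other 22 libraries, when left out, brought the count under 5. The libraries also carry a number in the labels, 1 to 4 in WT and 5, 6, 7 and 9 in SCAP cKO, shared by a library of each population. Whether a number marks an animal is not stated. If it does, the comparison is of 4 against 4 animals rather than 12 against 12 libraries. With libraries summed by number 0 genes passed in edgeR (310 at an unadjusted p under 0.05). Here and below, such sums add raw counts without a term for population. Deeper libraries weigh more in them, so they can mix population make-up with genotype.

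**Figure D1:**
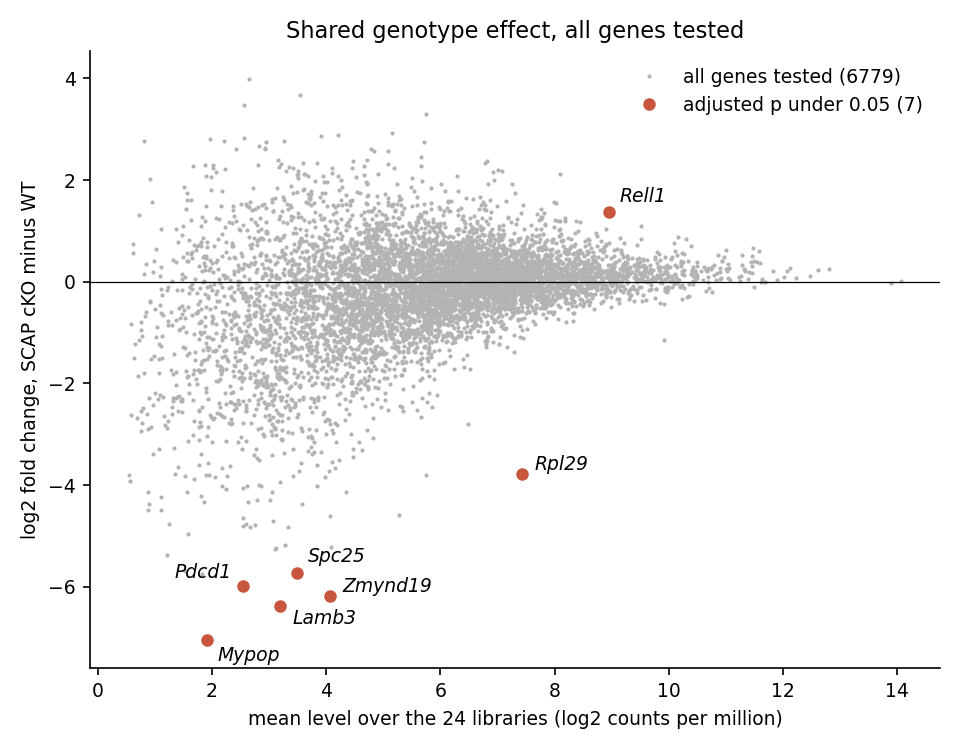
Log2 fold change (SCAP cKO minus WT, y axis) against mean level over the 24 libraries (log2 CPM, x axis) for each of the 6779 genes tested, with the 7 genes past an adjusted p of 0.05 in red. Rpl29 and Rell1 lie at moderate to high levels, while the other 5 lie among genes of low level, where the spread is widest.

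Rpl29, a protein of the large ribosomal subunit, was the clearest difference between the genotypes. WT libraries held 151 to 666 CPM (median 199, mean 312 ± 212 SD, n = 12) and SCAP cKO libraries 0 to 92.1 CPM (median 24.4, mean 34.0 ± 35.6 SD, n = 12). Every SCAP cKO library lay below every WT library; among 6779 genes this held for Rpl29 alone (0.0148%), and for 0 genes (0.00%) in the opposite direction. The log2 fold change was -3.78 ± 0.59 (SE; edgeR adjusted p 1.63e-04). Summed over libraries, 10695 counts in WT stood against 1084 in SCAP cKO, a 7.44-fold difference in CPM (95% interval 6.98 to 7.92, exact and for counting error only).

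Rpl29 passed in each batch alone, and its mean was lower in SCAP cKO in each sorted population. In batch 1, WT libraries held 165 to 666 CPM and SCAP cKO libraries 35.4 to 92.1 CPM, a log2 fold change of -2.46 in that batch alone (edgeR adjusted p 0.0397, 0.0291% of genes called). In batch 2, WT libraries held 151 to 217 CPM and SCAP cKO libraries 0 to 13.5 CPM, with a log2 fold change of -5.70 (edgeR adjusted p 0.0246, 0.0290% called). The mean in WT was 323 ± 230 CPM in lung CCR6+CD69+, 205 ± 79.8 in lung CCR6-CD69- and 409 ± 279 in circulating libraries (SD, n = 4), against 29.0 ± 27.6, 28.2 ± 35.3 and 44.9 ± 49.1 CPM in SCAP cKO. The genotype by population interaction for Rpl29 had an unadjusted p of 0.886 in edgeR. Between batches the size of the fall differed more, by -3.24 ± 0.97 (SE) for batch 2 minus batch 1. That edgeR interaction, a test added after seeing the data, had an unadjusted p of 0.00151 and did not pass adjustment (adjusted p 0.306). All 24 fits that left out 1 library called Rpl29, with log2 fold changes from -3.99 to -3.53.

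A pair of settings ended the call for Rpl29 without changing its direction. Without a batch term its log2 fold change was -2.74 (adjusted p 0.394, 0.00% of genes called). With libraries summed by number, the WT sums held 175 to 629 CPM and the SCAP cKO sums 2.31 to 74.3 CPM of Rpl29, still without overlap (as for 2.05% of genes tested), at a log2 fold change of -3.90 ± 0.57 (edgeR adjusted p 0.188 over 8 sums, 0.00% called). Rpl29 has processed copies elsewhere in the mouse genome, and how reads shared with them were counted is not given in the sources used here, so its level is uncertain.

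No other tested gene for a cytosolic ribosomal protein passed the threshold. Of 54 other tested genes for cytosolic ribosomal proteins, a set gathered after Rpl29 was seen, 40 were higher and 14 lower in SCAP cKO, with a median log2 fold change of 0.15 and 0 past the threshold in edgeR. At an unadjusted p under 0.05 there were 9 of the 54, a larger share than the 4.94% of all genes tested. The share that was higher in SCAP cKO also exceeded the 46.6% of all genes tested. Their values ran from -0.54 for Rpl24 to 0.89 for Rpl38.

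Rpl29 and Scap lie on the same chromosome, 9. RefSeq (GRCm38.p6) places 171 genes between them, of which 25 were tested here. Of these 25, 15 were lower and 10 higher in SCAP cKO, beside 53.4% lower among all genes tested. The median log2 fold change of the 25 was -0.02, with 0 past the threshold in edgeR. At an unadjusted p under 0.05 there were 2, both lower, beside 3.16% lower among all genes. The smallest p of the 25 belonged to Amigo3, a neuronal adhesion protein gene, at -5.25 ± 1.51 (edgeR adjusted p 0.245). The other 6 genes called lie on chromosomes 1, 2, 5 and 7.

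**Figure D2:**
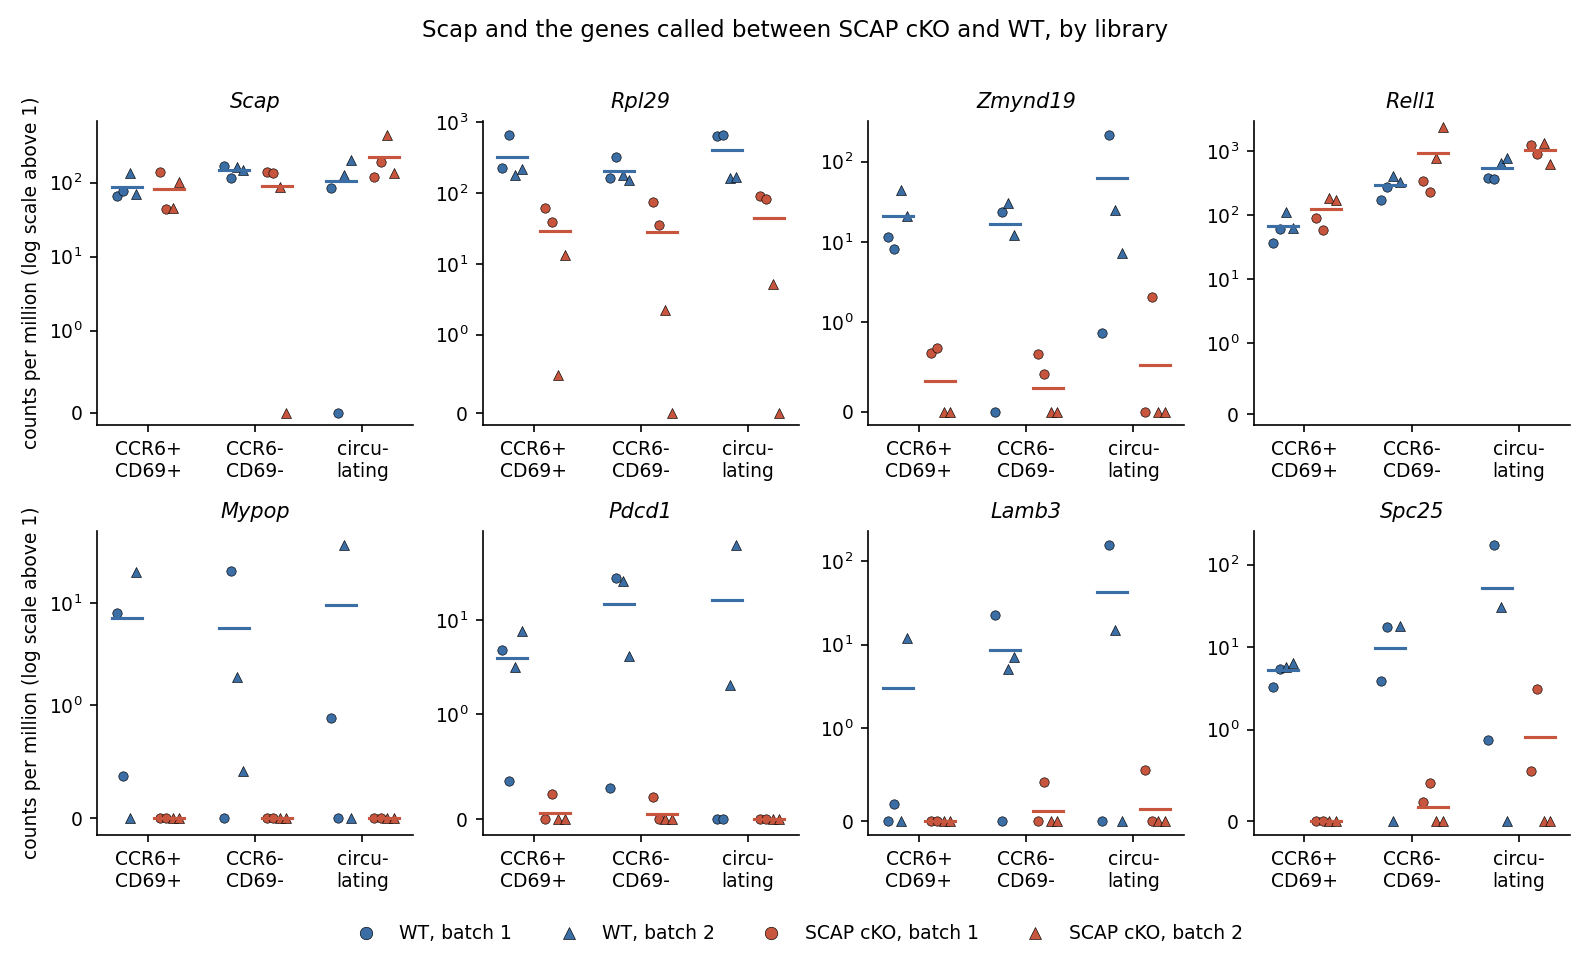
Level (CPM, y axis, logarithmic above 1 and linear below) of Scap and the 7 genes called in each of the 24 libraries, by sorted population (x axis), genotype (colour) and batch (shape), with bars at the mean of 4 libraries. Rpl29 lies between 151 and 666 CPM in WT and at 92.1 CPM or below in SCAP cKO, while Scap overlaps between genotypes.

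Rell1, a member of the RELT family of tumour necrosis factor receptors, was the 1 gene called as higher in SCAP cKO. WT libraries held 36.3 to 783 CPM (median 295) and SCAP cKO libraries 57.4 to 2379 CPM (median 484), and the ranges overlapped. The mean was higher in SCAP cKO in all 3 populations, for example 1011 ± 306 against 543 ± 207 CPM in circulating libraries (SD, n = 4). Its log2 fold change was 1.37 ± 0.31 (edgeR adjusted p 0.0482). The highest value came from SCAP cKO lung CCR6-CD69- replicate 4, which held 129025 counts, and without that library the log2 fold change was 1.04 (adjusted p 0.137). Of the 24 fits that each left out 1 library, 4 called Rell1.

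The other 5 genes that fell were close to 0 in SCAP cKO and uneven in WT. Zmynd19, a MYND zinc finger protein gene, was counted in 11 of 12 WT libraries (0 to 216 CPM, median 16.6) and in 5 of 12 SCAP cKO libraries (0 to 2.09 CPM, median 0); its pooled counts, 603 against 11, differed 41.3-fold (95% interval 22.9 to 83.2) and its log2 fold change was -6.18 ± 1.30 (edgeR adjusted p 0.0436). Spc25, a subunit of the NDC80 kinetochore complex, was counted in 10 WT and 4 SCAP cKO libraries, with 303 against 6 counts, a 38.1-fold difference (17.3 to 105; edgeR adjusted p 0.0482). Both had their highest WT value in circulating replicate 2, the WT library with 356782 counts.

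Pdcd1, which encodes the inhibitory receptor PD-1, was counted in 10 of 12 WT libraries (0 to 62.8 CPM, median 3.69) and in 2 of 12 SCAP cKO libraries, at most 0.239 CPM. Pooled counts of 296 and 2 gave a 112-fold difference with a wide interval of 30.6 to 925 (edgeR adjusted p 0.0482). Lamb3, the beta 3 chain of laminin, gave 228 counts in 7 WT libraries and 2 counts in 2 SCAP cKO libraries. That was an 85.9-fold difference (23.5 to 714, edgeR adjusted p 0.0482). Its highest WT value, 157 CPM beside a WT median of 2.63, was in circulating replicate 2 too, which held 356782 counts. Mypop, a Myb-related transcription factor gene, had 239 counts in 8 of 12 WT libraries and 0 in SCAP cKO, and was at least 60.0-fold lower against a floor of 3 counts over the pooled SCAP cKO libraries, or 0.112 CPM (edgeR adjusted p 0.0482). WT values overlapped those of SCAP cKO for all 5 genes, since each was at 0 in at least 1 WT library.

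These 5 falls, unlike that of Rpl29, were called in few of the other fits. With each library left out in turn, Zmynd19 was called in 9 of 24 fits and Spc25, Pdcd1, Lamb3 and Mypop in 2 each, always with the same sign. All 5 were near 0 in SCAP cKO in batch 1 as well, with Mypop at 0 in all SCAP cKO libraries. The lowest WT value in that batch was also 0 for Mypop, Lamb3, Zmynd19 and Pdcd1. Spc25 was at 0 to 3.13 CPM in SCAP cKO there, against 0.884 to 174 CPM in WT. The cause of these falls was not tested. With the number of genes detected as a covariate, a setting added after seeing the data, Rpl29 (adjusted p 1.99e-05) and Zmynd19 were called (0.0295%) and the split at an unadjusted p under 0.05 turned to 441 higher and 125 lower. Without the libraries under 500000 counts, Rpl29 was the 1 gene called (0.0143%), and 249 genes were higher and 204 lower at that p. 

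**Figure D3:**
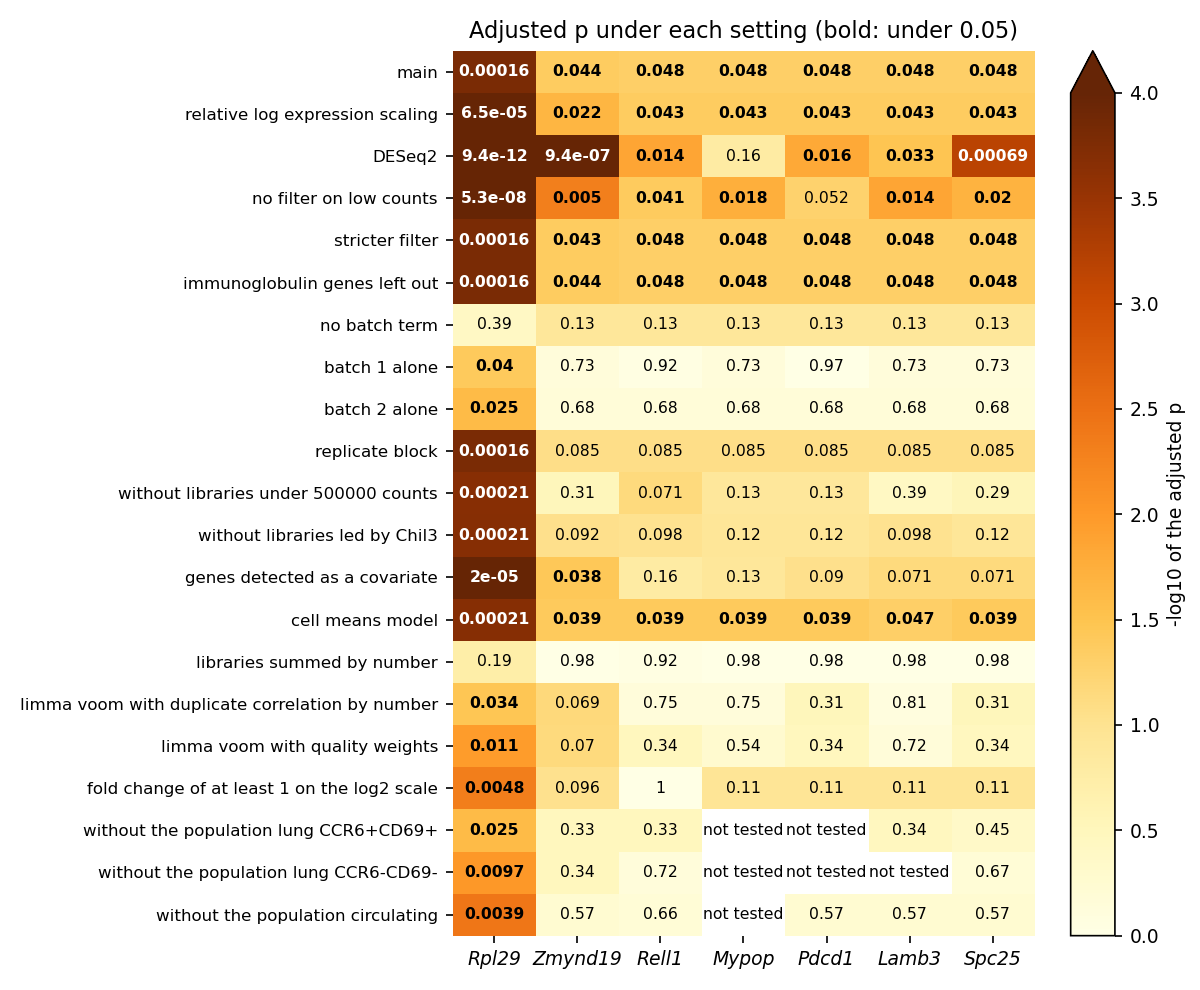
Adjusted p of the 7 genes called (columns) in the fit as reported and in 20 other settings (rows); colour gives -log10 of the adjusted p and bold print a value under 0.05. Rpl29 is under 0.05 in 18 of the 20 other settings, and the other genes in 5 to 7.

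Genes just outside the threshold are given as values that did not pass. Among the falls these were Retnla, a secreted product of alternatively activated macrophages (-4.58 ± 1.08, edgeR adjusted p 0.0672; WT 0 to 457 CPM, SCAP cKO 0 to 17.2 CPM), the exchange factor Farp2 (-5.23 ± 1.29), the kinesin Kifc3 (-5.18 ± 1.29), the endoribonuclease Endou (-4.81 ± 1.25), the prefoldin subunit Pfdn4 (-4.12 ± 1.09) and Fras1, with 137 counts in WT and 0 in SCAP cKO. Adjusted p for the last 5 ran from 0.0962 to 0.163 in edgeR. Retnla passed with relative log expression scaling (adjusted p 0.0431), in DESeq2 (0.00231) and without the filter on low counts (0.0126). The summed level of the 17 macrophage and monocyte markers with a row ran from 537 to 38721 CPM in WT and from 128 to 52240 CPM in SCAP cKO. The part of these cells in the value for Retnla was not tested.

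Among the 11 rises that did not pass were Zbtb26, a zinc finger protein gene (3.29 ± 0.89), the tetraspanin Tspan2 (2.37 ± 0.67), the antiviral factor Trim5 (2.19 ± 0.68), the cytokine Il1b (1.43 ± 0.47), the G protein subunit Gnai3 (1.18 ± 0.35) and the ferritin heavy chain Fth1 (0.67 ± 0.20), with edgeR adjusted p from 0.182 to 0.473 for all 11. For 9 of the 11 the highest library was SCAP cKO lung CCR6-CD69- replicate 4. Zbtb26 was at 651 CPM there and at most 136 CPM in any other library. Without that library its log2 fold change was 2.49 (adjusted p 0.793). Fth1 was highest in SCAP cKO lung CCR6-CD69- replicate 1, and without replicate 4 of that group its log2 fold change was 0.64 (edgeR adjusted p 0.256).

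Genes of cholesterol synthesis gave 0 calls. Of 22 genes on the list 13 were tested. Of these, 8 were lower and 5 higher in SCAP cKO, beside 53.4% lower among all genes tested. The count was 7 of 13 lower without the libraries under 500000 counts, and also with libraries summed by number. The list had a median log2 fold change of -0.48 beside -0.05 for all genes tested. At an unadjusted p under 0.05, 1 (Mvd) was lower, beside 3.16% of all genes. Mvd, mevalonate diphosphate decarboxylase, was counted at 1.62 to 123 CPM in WT (median 25.6) and 0 to 74.6 CPM in SCAP cKO (median 3.68), at -2.60 ± 1.06 (edgeR adjusted p 0.739). Cyp51, lanosterol demethylase and the most highly counted gene of the list, was at 84.1 to 605 CPM in WT (median 445) and 54.3 to 554 CPM in SCAP cKO (median 252), at -0.48 ± 0.36. Sc5d, sterol C5 desaturase, was at -0.98 ± 0.65, the lamin B receptor Lbr, a sterol reductase, at -0.64 ± 0.44, and the mevalonate pathway kinase Pmvk at 0.83 ± 0.55. Hmgcs1 was at 0.24 ± 0.53 (WT 0 to 213 CPM, SCAP cKO 7.75 to 464 CPM). The ranges of the genotypes overlapped for each of these genes. The list's median was -0.05 without the lung CCR6+CD69+ libraries, beside -0.16 for all genes there, and fitting batch 1 by itself gave -0.19 (all genes 0.11) and batch 2 by itself -1.18 (all genes -0.49).

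Fatty acid synthesis and desaturation gave a like count. Of 16 tested genes 10 were lower and 6 higher, the median log2 fold change was -0.43, 0 passed in edgeR, and 2 (Acaca and Hacd3) had an unadjusted p under 0.05. Among all genes tested, 53.4% were lower and 3.16% were lower at that p. Acaca, acetyl-CoA carboxylase of the committed step, was counted at 25.6 to 289 CPM in WT (median 92.3) and 0 to 127 CPM in SCAP cKO (median 11.5), at -1.59 ± 0.68 (edgeR adjusted p 0.836). Hacd3, a dehydratase of chain elongation, was at 26.8 to 461 CPM (median 81.8) and 0 to 168 CPM (median 41.9), at -1.67 ± 0.72 (edgeR adjusted p 0.851). Acacb was at -2.87 ± 1.57, the acetyl-CoA synthetase Acss2 at -1.32 ± 1.03, and the stearoyl-CoA desaturase Scd2 at 0.20 ± 0.36. The median of the list turned to 0.18 in batch 1 alone and was -0.90 in batch 2 alone, where the median of all genes was -0.49; it was 0.09 without the lung CCR6+CD69+ libraries (all genes -0.16).

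The SREBP pathway and sterol uptake list held Insig1, itself an SREBP target that feeds back on SCAP. Insig1 was counted at 70.3 to 346 CPM in WT (median 228, mean 233 ± 95.5 SD, n = 12) and 0 to 247 CPM in SCAP cKO (median 121, mean 104 ± 73.4 SD, n = 12). Its mean was lower in SCAP cKO in all 3 populations, at 56.7 against 129 CPM in lung CCR6+CD69+, 110 against 306 in lung CCR6-CD69- and 146 against 265 in circulating libraries. Summed by number, the 4 WT sums held 144 to 258 CPM and the 4 SCAP cKO sums 62.3 to 130 CPM, without overlap, while single libraries overlapped. Of all 6779 genes, 139 (2.05%) separated in this direction at the level of sums, and 52 (0.767%) in the other. The log2 fold change was -1.08 ± 0.48, which did not pass (edgeR p 0.0276, adjusted p 0.886); fitted within batches it was -0.38 ± 0.54 (batch 1) and -1.87 ± 0.76 (batch 2).

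Of the 12 tested genes of that list, 7 were higher and 5 lower, with a median of 0.17 and 0 past the threshold in edgeR. The median turned to -0.27 without the circulating libraries (all genes -0.18) and -0.46 in batch 2 alone (all genes -0.49), with 7 of 12 lower in each. Npc1, which exports cholesterol from lysosomes, was at 0.89 ± 0.36 (edgeR adjusted p 0.722), and at 0.49 without SCAP cKO lung CCR6-CD69- replicate 4, where it was highest. Insig2 was at 1.07 ± 0.62 and the phosphatidate phosphatase Lpin1 at -0.70 ± 0.64. The proteases Mbtps1 and Mbtps2 were at -0.16 ± 0.55 and 0.45 ± 0.79.

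**Figure D4:**
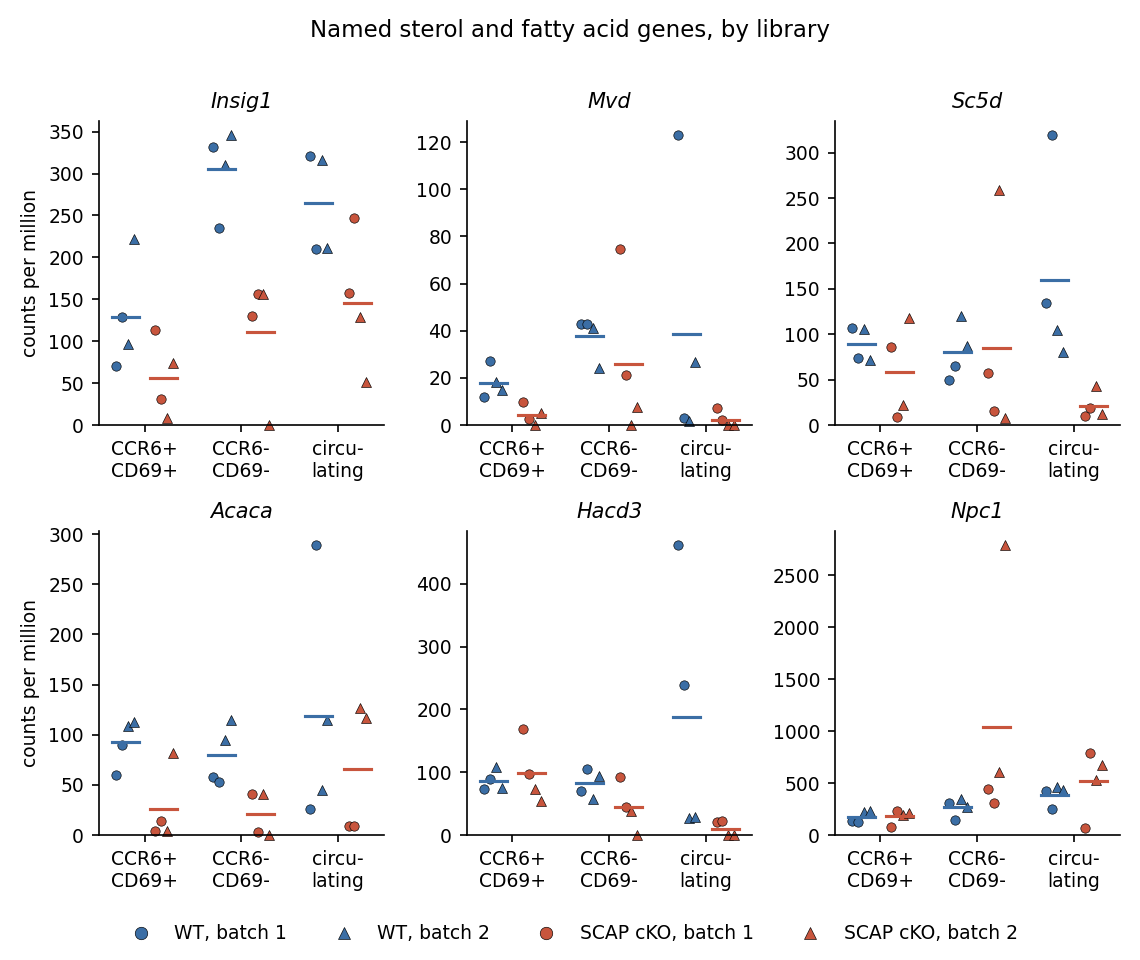
Level (CPM, y axis) of 6 sterol and fatty acid genes in each of the 24 libraries, by sorted population (x axis), genotype (colour) and batch (shape), with bars at the mean of 4 libraries. Insig1 means are lower in SCAP cKO in all 3 populations, from 306 to 110 CPM in lung CCR6-CD69-, and single libraries of the genotypes overlap.

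The remaining lipid and energy lists gave 0 calls in edgeR. Medians were 0.11 over 6 LXR and efflux genes, -0.02 over 16 genes of fatty acid oxidation, -0.17 over 11 of phospholipid and triglyceride synthesis, -0.01 over 9 of glycolysis, 0.27 over 9 of the TCA cycle and -0.15 over 9 of mTORC1 and the amino acid response. Fumarase, Fh1, had the smallest p of these, at 1.60 ± 0.62 (edgeR adjusted p 0.695); its highest value, 1310 CPM, was in SCAP cKO lung CCR6-CD69- replicate 4, and the medians were 85.0 CPM in SCAP cKO and 48.3 CPM in WT. Several of these medians turned in single batches, among them that of LXR and efflux genes (0.72 for batch 1, -0.36 for batch 2) and that of the TCA cycle (0.40 and -0.13). The median of all genes turned too, from 0.11 for batch 1 to -0.49 for batch 2. The efflux pump Abca1 was at 0.19 ± 0.31 and the oxidation enzyme Hadhb at 0.82 ± 0.43.

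Lists of B cell programmes also gave 0 calls. The plasma cell list had a median of -0.75 with 5 of 6 tested genes lower, beside 53.4% of all genes tested. With libraries summed by number 3 of 6 were lower and the median was -0.015. Without the lung CCR6+CD69+ libraries the median was -0.36 (all genes -0.16). Jchain, which links the units of secreted antibody polymers, was counted at 84.4 to 4677 CPM in WT (mean 1468 ± 1461 SD, n = 12) and 84.7 to 1426 CPM in SCAP cKO (mean 464 ± 397 SD, n = 12); the groups overlapped, and its log2 fold change of -1.15 ± 0.33 did not pass (edgeR p 0.00132, adjusted p 0.274). The plasma cell surface gene Sdc1 was at -1.39 ± 1.08 and Creb3l2, a secretory pathway factor, at -1.33 ± 0.84. Germinal centre and memory genes had a median of -0.29 (8 of 10 lower), which was -0.07 (5 of 10 lower) without the libraries under 500000 counts (all genes 0.08). Medians were, for B cell receptor signalling genes, 0.10, for MHC class II genes 0.08 and for genes of tissue retention and egress 0.25. In batch 2 alone these were -0.10, -0.19 and -0.14, beside -0.49 for all genes. Cd69, a sorting marker, was at 0.49 ± 0.32.

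Of 14 tested proliferation genes 10 were lower, with a median of -0.39, 0 past the threshold in edgeR and 3 lower at an unadjusted p under 0.05, beside 53.4% of all genes lower and 3.16% lower at that p. Those were the ribonucleotide reductase subunit Rrm2 (-3.37 ± 1.16, adjusted p 0.494; WT 0.442 to 47.6 CPM, SCAP cKO 0 to 24.8 CPM), the inhibitor of apoptosis Birc5 (-3.40 ± 1.43) and cyclin A2, Ccna2 (-2.74 ± 1.17). The list's median was -0.16 without the libraries under 500000 counts, where the median of all genes was 0.08. Apoptosis and survival genes had a median of 0.06, unfolded protein response genes 0.01, interferon response genes 0.34 (9 of 13 higher) and p53 response genes 0.36 (6 of 10 higher). Among all genes tested, 46.6% were higher. The interferon median turned to -0.41 with batch 2 by itself (all genes -0.49) and -0.25 without the lung CCR6+CD69+ libraries (all genes -0.16). That of p53 genes was -0.10 without those libraries, -0.03 with batch 1 by itself (all genes 0.11) and -0.14 with batch 2 by itself. Phlda3, a p53 target, was at 3.47 ± 1.19 (edgeR adjusted p 0.494), with 539 counts in SCAP cKO and 81 in WT; 496 of the 539 came from SCAP cKO lung CCR6-CD69- replicate 1, one of the libraries led by Chil3.

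Markers of other cell types gave 0 calls in edgeR. Medians were 0.02 over 15 macrophage and monocyte genes, 0.33 over 9 T cell genes, 0.26 over 10 natural killer cell genes, 0.16 over 8 plasmacytoid and 0.63 over 7 conventional dendritic cell genes, 0.70 over 6 granulocyte, mast cell and basophil genes and 0.45 over 5 epithelial, endothelial and stromal genes. With libraries summed by number the macrophage and monocyte median was 1.16 (3 of 15 lower). Deeper libraries weigh more in those sums. Of the libraries led by Chil3, SCAP cKO lung CCR6-CD69- replicate 1 held 4641148 counts and WT lung CCR6-CD69- replicate 2 held 680077. Their part in this median was not tested. Fitted by batch, T cell genes were at 1.04 (batch 1) and -0.55 (batch 2), natural killer cell genes at 0.87 and -0.17, and granulocyte, mast cell and basophil genes at 1.56 and -1.37. Beside these, the median of all genes was 0.11 (batch 1) and -0.49 (batch 2). The summed natural killer markers ran from 0 to 3257 CPM in WT and from 0 to 3111 CPM in SCAP cKO libraries. The neutrophil gene S100a9 was at 2.33 ± 0.99 (edgeR adjusted p 0.886).

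**Figure D5:**
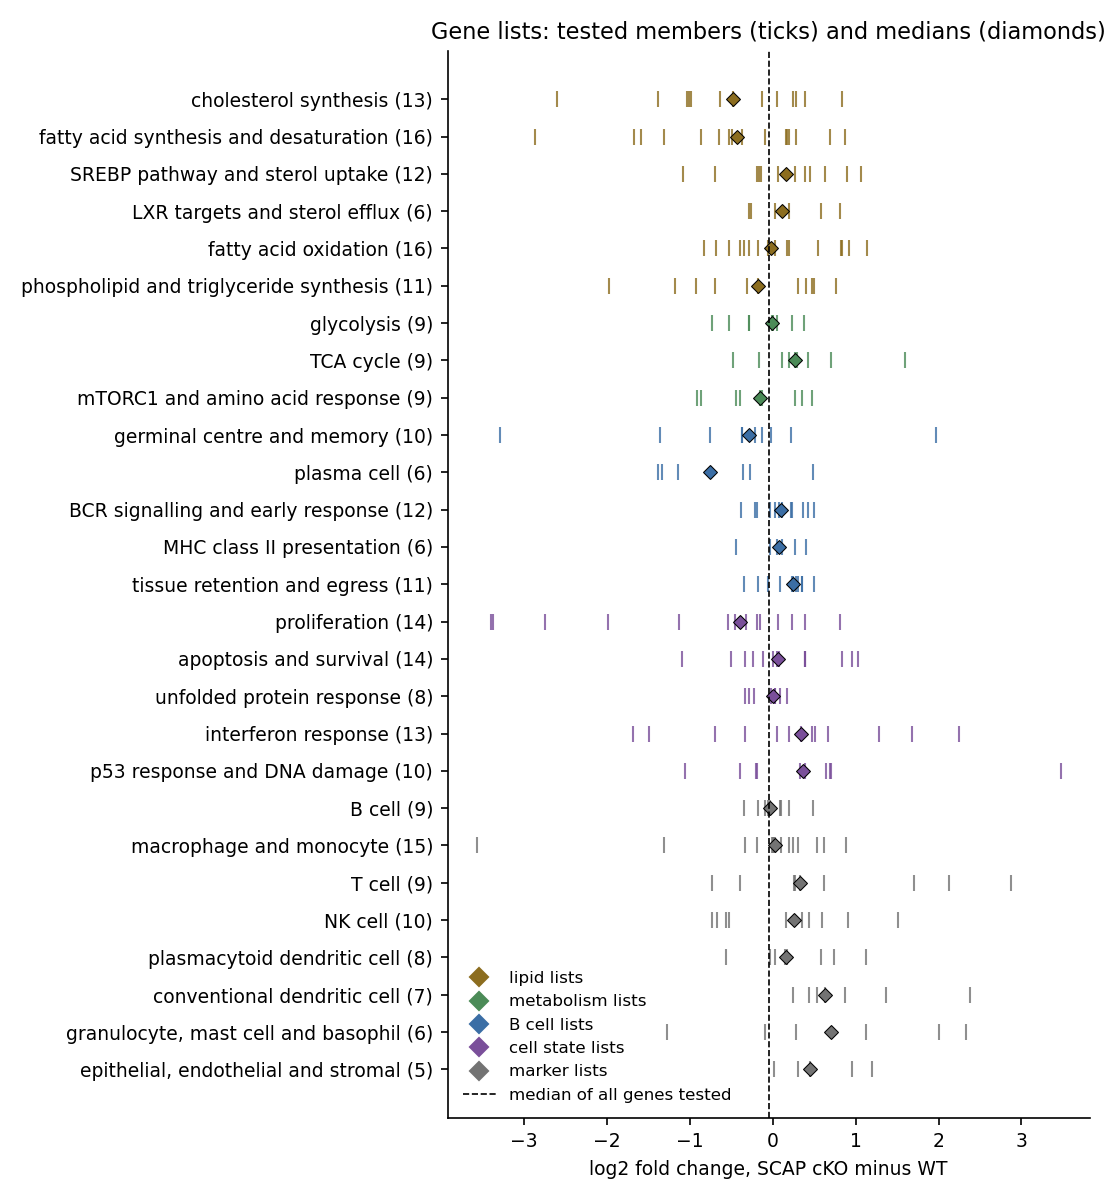
Log2 fold change (SCAP cKO minus WT, x axis) of the tested members (ticks) and their median (diamond) for each list with at least 4 tested members, whose number stands in brackets; the dashed line is the median of all genes tested, -0.05. List medians run from -0.75 for plasma cell genes to 0.70 for granulocyte, mast cell and basophil genes.

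An average over populations describes a gene only where the populations respond alike, so the difference itself was tested. In edgeR 0 of 6779 genes (0.00%) passed for the genotype by population interaction, and 426 did so before adjustment. By DESeq2 5 genes were called (Ano10, Cd244a, Chpf, Shb and Vkorc1l1), and 7 by edgeR without the filter on low counts. Shb, an adaptor protein gene, had the smallest edgeR p, 1.35e-04 (adjusted p 0.609). In 5 of 6779 genes (0.0738%), Shb among them, all SCAP cKO libraries lay above WT in 1 population and below WT in another. Among the genes called for the shared effect, unadjusted interaction p in edgeR was 0.886 for Rpl29, 0.596 for Rell1 and 0.972 for Zmynd19. It was 0.730 for Lamb3, 0.545 for Pdcd1 and 0.465 for Spc25. Mypop, at 0 counts in SCAP cKO, gives this test nothing to compare. With 4 libraries per group and a coefficient of variation of 1.12, a lack of calls cannot show that populations respond alike. This holds most for genes near 0 in all SCAP cKO groups, such as Zmynd19.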

How the data were processed

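Polyadenylated RNA of sorted B cells was sequenced from libraries made with a kit for few cells, per the labels' protocols. One table of raw counts was deposited by the authors, with 18470 gene symbols as rows and the libraries as columns. FastQC, STAR, Salmon and build mm39 are named in the submitters' processing notes, without versions or roles, so which tool made the counts is not given in the sources used here. Groups, batches and numbers came from the labels.

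In R 4.3.3, edgeR 4.0.16 (robust quasi-likelihood F-test) was fitted to the counts of all 24 libraries with terms for genotype, population and batch, TMM scaling and the filterByExpr filter by the 6 groups (6779 genes kept). Benjamini-Hochberg adjustment ran over all genes tested, at a threshold of 0.05. CPM are counts scaled to 1e6 per library total; intervals and floors of 3 counts (0.112 CPM pooled over SCAP cKO) cover counting error only. Alternatives used DESeq2 1.42.0 and limma 3.58.1. The fit was tested on simulated data.

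The comparison and the gene lists were chosen with earlier results of these data known. Named genes were Scap, then up to 12 rises and 12 falls with at least 5 CPM in the higher genotype (all that passed, then those with the smallest p), up to 4 members of each list (smallest p, or highest level for marker lists) and the 5 smallest interaction p; others are named as examples. Of the sex-linked genes listed, 1 had a row and it held 0 counts, so it was not tested. Gene rows not present in the table used are not analysed here, and some named list members are not reported here. Symbols were matched to RefSeq (GRCm38.p6) for 17182 of 18470 rows, for chromosomes, order and promoters only.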

Additional observations from a re-analysis of the deposited data

Results flagged for a closer look

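In 30 groups of 4 libraries tested for a single distant value, 4 were flagged, and chance flags about 1 in 20 such groups. WT circulating replicate 2 stood apart from its group in total counts, at 356782. Rpl29 stood apart in WT lung CCR6+CD69+ replicate 2, at 666 CPM, and in WT lung CCR6-CD69- replicate 2, at 323 CPM; both lie on the high side, away from the SCAP cKO libraries. Scap stood apart in WT lung CCR6+CD69+ replicate 3, at 134 CPM.

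The genotype effect on Foxo4, a forkhead transcription factor gene, differed between batches: its log2 fold change in batch 2 minus that in batch 1 was -8.57 ± 1.67 (SE; edgeR interaction, adjusted p 0.0222, a test added after seeing the data), the 1 gene called of 6779 (0.0148%), with 545 at an unadjusted p under 0.05. Its shared effect was -1.93 ± 1.19 (adjusted p 1.00).

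Shb, chosen after its values were seen, had library values without overlap in opposite directions in a pair of populations, as did 5 of 6779 genes (0.0738%) in all. Every SCAP cKO circulating library (7.31 to 207 CPM) lay above every WT one (0 to 0.884 CPM), and every SCAP cKO lung CCR6-CD69- library (0 to 1.72 CPM) lay below every WT one (1.90 to 23.9 CPM). The lung gap, 1.72 against 1.90 CPM, lies near the floor. In WT lung CCR6-CD69- replicate 3, 3 counts make 1.90 CPM. In SCAP cKO lung CCR6-CD69- replicate 4 they make 23.3 CPM, so its low value hardly separates it from WT. The genotype by population interaction for Shb had p 0.000135 in edgeR and did not pass adjustment (adjusted p 0.609).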

How the results depend on the processing

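The 7 calls of the shared genotype effect (1 higher, 6 lower) became 40 with DESeq2 (5 and 35) and 12 without the filter on low counts (3 and 9). They stayed at 7 or 8 with relative log expression scaling, without immunoglobulin genes, with cell means and with a stricter filter of 5 CPM in 4 libraries. There were 0 calls (0 higher, 0 lower) without a batch term and with libraries summed by number. There was 1 call (0 higher, 1 lower) with the replicate number as a block, without libraries under 500000 counts, without libraries led by Chil3 (added after seeing the data), with limma voom and quality weights, with a test against a log2 fold change of 1, and without either the lung CCR6-CD69- or the circulating population. There were 2 calls (0 higher, 2 lower) in batch 2 alone, without the lung CCR6+CD69+ population, with limma voom and a correlation by number, and with genes detected as a covariate (added after seeing the data), and 2 (1 higher, 1 lower) in batch 1 alone. Leaving out each library gave 1 to 6 calls (0 to 1 higher, 1 to 5 lower), and each number 1 to 2 (0 to 1 higher, 1 to 2 lower). In every one of these fits with calls, Rpl29 was among them.

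The interaction gave 5 calls with DESeq2 and 7 without the filter, and 0 in each other setting run. Scap reversed to -0.47 in batch 2 alone, -0.34 without the circulating population, and lay between -0.041 and 0.68 with each number left out; Trim5 to -0.061 with voom quality weights; Lbr to 0.011 with genes detected as a covariate. The cause was not tested. The replicate numbers of the titles do not pair the samples by the rule used: same-numbered deviations correlated at 0.05 to 0.40 over 12 pairs, and 5 of 12 libraries correlated best with their own number. With duplicate correlation by the number in the library name, the consensus was 0.0227. Settings moved the median of all genes from -0.49 (batch 2 alone) to 0.24 (genes detected as a covariate). Depth limits genes near 0: 1 library held 129025 counts, where 3 counts make 23.3 CPM.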
